A study of Mus musculus with 15 samples.

Results

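The 8 genes described here encode components of the phosphoinositide 3-kinase (PI3K) and AKT pathway: the catalytic subunits Pik3ca and Pik3cd, the regulatory subunit Pik3r1, the lipid phosphatase Inpp5d (SHIP-1), the adaptor Dapp1 (Bam32), the kinases Akt1 and Akt2 and the transcription factor Foxo1. They were taken by gene symbol from 2 tables of normalized read counts (CPM, scaled to an effective library size), 1 for each treatment. Each of the 8 was found in both tables, out of 17029 genes listed in either. RNA was sequenced from cells of tumor-bearing spleens that had been kept in culture for 24 h with DMSO as the vehicle or with ibrutinib, an inhibitor of Bruton tyrosine kinase (BTK). All mice were C57Bl/6 and carried the Eμ-TCL1 transgene, in which an immunoglobulin heavy chain enhancer drives the TCL1 oncogene in B-cells, so no group lacked TCL1. Eμ-TCL1;p53R172H/+ mice carried in addition 1 copy of a point-mutant Trp53 allele, which gene-level values cannot show. In DMSO there were 3 Eμ-TCL1 libraries (replicates 2, 3 and 4) and 5 Eμ-TCL1;p53R172H/+ libraries (replicates 1 to 5), and in ibrutinib there were 3 (replicates 1, 3 and 4) and 4 (replicates 1, 3, 4 and 5). The age of the mice at harvest is not given in the sources used here.

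B-cell receptor signaling recruits PI3K to the membrane, where its catalytic subunits make the lipid PIP3, and proteins with a pleckstrin homology domain, among them AKT, BTK and DAPP1, bind that lipid. SHIP-1 is one of the phosphatases that remove it. AKT phosphorylates FOXO1 and keeps it out of the nucleus, and TCL1 binds AKT and promotes its activation. The values below are levels of RNA and say nothing of the phosphorylation of these proteins.

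Of the 8 genes, Dapp1 and Akt2 were the members whose genotypes did not overlap in either treatment. The 250 bases upstream of the RefSeq start of Dapp1 (GRCm38.p6, chr3:137981550-137981799, minus strand) and of the first of 4 RefSeq starts of Akt2 (chr7:27591302-27591551, plus strand) are shown for that reason, 5′ to 3′ on the strand of the gene, with a match to the GC box GGGCGG on either strand in capitals.

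Dapp1: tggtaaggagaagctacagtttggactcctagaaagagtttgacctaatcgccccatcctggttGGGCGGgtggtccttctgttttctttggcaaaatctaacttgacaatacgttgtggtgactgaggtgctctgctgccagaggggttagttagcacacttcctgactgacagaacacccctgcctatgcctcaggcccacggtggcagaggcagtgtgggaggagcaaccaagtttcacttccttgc

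Akt2: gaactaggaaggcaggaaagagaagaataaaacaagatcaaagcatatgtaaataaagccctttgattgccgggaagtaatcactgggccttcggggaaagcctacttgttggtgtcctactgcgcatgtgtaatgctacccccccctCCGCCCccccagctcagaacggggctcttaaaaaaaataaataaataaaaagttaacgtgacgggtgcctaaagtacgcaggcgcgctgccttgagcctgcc

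Each of these windows held 1 GC box, a motif that 32.7% of 32851 upstream windows of the same length held, and 2 matches to the ETS core GGAAG, which 64.1% held. The E-box CANNTG matched at 2 places in the Akt2 window and at 0 in that of Dapp1, against 66.2% of all windows with at least 1 match. The forkhead motif GTAAACA, held by 3.17% of windows, was in neither. Both strands were searched, and overlapping matches to different motifs were each counted.

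The cell type markers differed between libraries, and the lists are given first because members moved with some of them. Of 8 B-cell markers (among them Cd79a and Ms4a1), all were found in every library, with summed values from 65.3 to 5954. T-cell markers (8 of 8 found, including Cd3e, Cd4 and Lck) summed to more than the B-cell markers in Eμ-TCL1;p53R172H/+ replicates 1 and 2 in DMSO (2102.1 and 2500.1, against 268.1 and 262.5) and in replicates 1 and 3 in ibrutinib (1363.9 and 807.1, against 65.3 and 546.8). Myeloid markers (8 of 9 found, including Lyz2 and S100a8) summed to 28933.9 in Eμ-TCL1 replicate 2 in DMSO and to 20537.3 in Eμ-TCL1 replicate 1 in ibrutinib, where the B-cell markers reached 505.6 and 401.9. They also led in Eμ-TCL1;p53R172H/+ replicate 3 in ibrutinib, at 1149.5. Erythroid markers (6 of 7 found) were high in the same pair of Eμ-TCL1 libraries, at 14076.2 and 11892, and at most 192.4 elsewhere. NK-cell markers (5 of 5 found) summed to 122.6 to 262.5 in Eμ-TCL1;p53R172H/+ replicates 1 and 2 in DMSO and 1 in ibrutinib and to at most 35.1 elsewhere. Stromal and endothelial markers stayed between 52.7 and 196.4. B-cell markers were the highest list in Eμ-TCL1 replicates 3 and 4 of each treatment, in Eμ-TCL1;p53R172H/+ replicates 3, 4 and 5 in DMSO and in replicates 4 and 5 in ibrutinib, and each comparison is also given over these libraries, a choice made after the data were seen. By Ddx3y and Xist, all Eμ-TCL1 libraries were female, and 3 Eμ-TCL1;p53R172H/+ libraries in each treatment (replicates 1, 2 and 4 in DMSO and 1, 3 and 4 in ibrutinib) were male. The labels do not state that each library was a separate mouse, nor that DMSO and ibrutinib libraries came from different mice. All Eμ-TCL1 libraries held the heavy chain segment Ighv1-55, at 162.7 to 1146.3 (at most 5.4 in Eμ-TCL1;p53R172H/+). They also shared the light chain segment Igkv12-89, at 220.6 to 1478.4 (at most 11.2 in Eμ-TCL1;p53R172H/+). Eμ-TCL1;p53R172H/+ replicates 3 and 5 in DMSO shared the light chain segment Igkv12-46 (923.4 and 1076.9, at most 6.8 in the other DMSO libraries). Replicates 1 and 2 shared the T-cell receptor segment Trbv17 (372.5 and 378.9, at most 4 in the others). Whether libraries of a genotype came from related leukemias was not tested, so that p-values measure the spread between these libraries only. In bulk RNA, fewer cells of a type and less RNA per cell cannot be told apart.

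**Figure D1:**
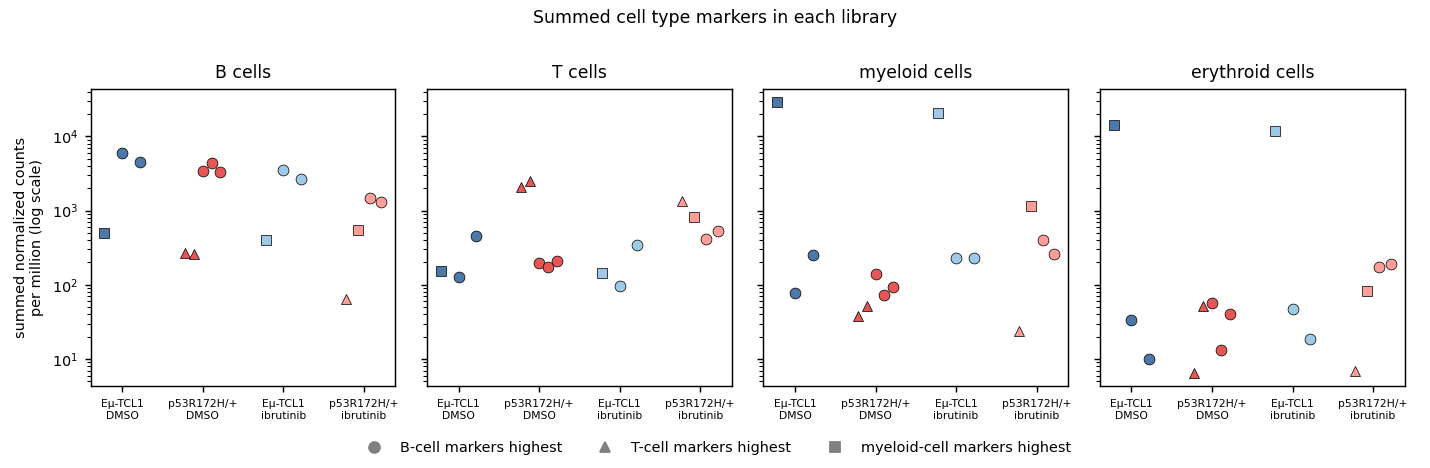
Summed normalized CPM of B-cell, T-cell, myeloid and erythroid markers (log scale) in each library of the 4 groups, with the symbol showing which list was highest. The 2 Eμ-TCL1 libraries drawn as squares reach 28933.9 and 20537.3 for myeloid markers, and the triangles are the Eμ-TCL1;p53R172H/+ libraries led by T-cell markers.

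To ask how the levels of the 8 genes rank, values were divided by the length of the exons in kb. Pik3cd, the delta catalytic subunit found mainly in leukocytes, had the highest mean value per kb in each of the 4 groups, from 52.5 ± 19.8 (SD, n = 3) in Eμ-TCL1 with ibrutinib to 104 ± 78.9 (SD, n = 5) in Eμ-TCL1;p53R172H/+ with DMSO. Inpp5d was second in each group, at 25.1 to 47.2 per kb, and its range overlapped that of Pik3cd in every group but Eμ-TCL1;p53R172H/+ with ibrutinib. Akt2 was the lowest in each group, at 4.50 to 6.79 per kb. In both Eμ-TCL1;p53R172H/+ groups the highest Akt2 library (7.46 in DMSO and 5.43 in ibrutinib) was below the lowest library of Dapp1, the next in order (8.58 and 6.47), whereas in both Eμ-TCL1 groups the ranges of Akt2 and Foxo1 overlapped. Pik3ca, Pik3r1, Akt1, Dapp1 and Foxo1 took the places between, at 7.96 to 23.1 per kb, and their order changed from group to group. Among these shifts was that of Dapp1, which in DMSO ranked 5 of 8 in Eμ-TCL1, at 19.4 ± 2.14 per kb (SD, n = 3), and 7 of 8 in Eμ-TCL1;p53R172H/+, at 11.1 ± 2.39 (SD, n = 5).

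**Figure D2:**
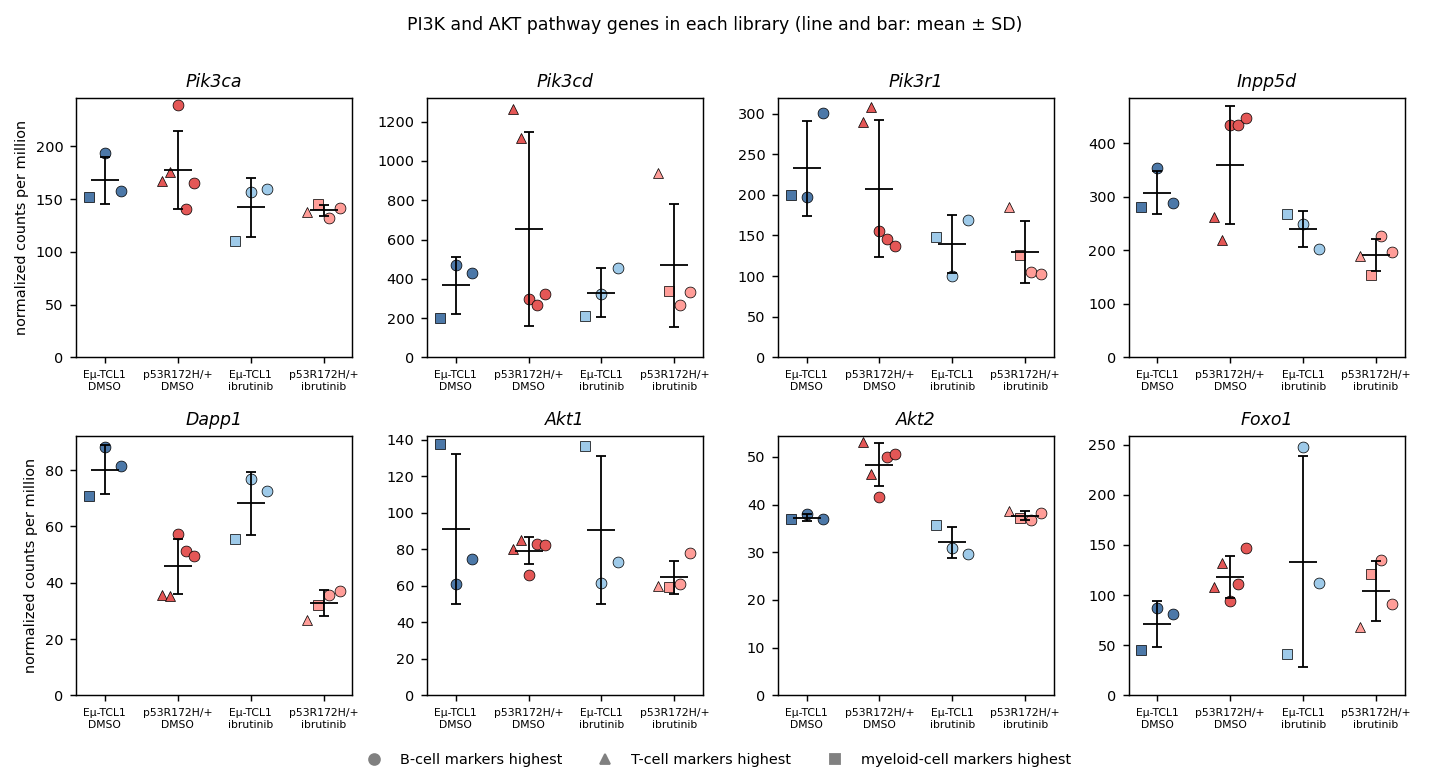
Normalized CPM of the 8 genes in each library, with the mean and SD of each group; circles, triangles and squares mark the marker list that was highest in the library. Dapp1 lies lower and Akt2 higher in every Eμ-TCL1;p53R172H/+ library than in any Eμ-TCL1 library of the same treatment, and the highest Pik3cd values, 937.9 to 1265.2, are all triangles.

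To ask whether the p53R172H allele goes with other levels of these genes, genotypes were compared within each treatment with limma over all genes of the table, on the log2 of the value plus 1. None of the 8 genes passed the threshold (a Benjamini-Hochberg adjusted p under 0.05) in either treatment. Over all genes, 2 of 16470 passed in DMSO (0.0121%) and 0 of 16428 in ibrutinib (0%), where 1973 (12%) had an unadjusted p under 0.05, against 1346 (8.17%) in DMSO. At that looser limit, 1 member was higher (3.52% of all genes) and 1 was lower (4.65%) in Eμ-TCL1;p53R172H/+ in DMSO, and 0 were higher (5.69%) and 1 lower (6.32%) in ibrutinib. The genotypes did not overlap for 3 of 8 members in DMSO, against 6.45% of all genes, and for 2 of 8 in ibrutinib, against 12.7%. The median log2 change of the 8 genes was 0.12 in DMSO and -0.08 in ibrutinib, beside 0.04 and -0.05 for all genes tested. A positive log2 change means a higher level with the mutant allele.

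Dapp1 (ENSMUSG00000028159, GRCm38 chr3:137931007-137981545, minus strand), an adaptor that binds PIP3 downstream of the B-cell receptor, was the member with the lowest p-value in both treatments. In DMSO its values were 70.7, 88.2 and 81.6 in Eμ-TCL1 replicates 2, 3 and 4 and 35.5, 35.4, 57.3, 51.2 and 49.6 in Eμ-TCL1;p53R172H/+ replicates 1 to 5. In ibrutinib they were 55.5, 76.8 and 72.4 in Eμ-TCL1 replicates 1, 3 and 4 and 26.7, 32.0, 35.5 and 37.1 in Eμ-TCL1;p53R172H/+ replicates 1, 3, 4 and 5. Every Eμ-TCL1;p53R172H/+ library was below every Eμ-TCL1 library of its treatment, and within each genotype the libraries led by T-cell or myeloid markers were the lowest. In DMSO, 2.93% of all genes lay lower without overlap, in ibrutinib 5.97%, and 213 of the 15869 genes in both tables (1.34%) did so in each. The log2 change was -0.82 (SE 0.23, adjusted p = 0.429, limma) in DMSO and -1.03 (SE 0.19, adjusted p = 0.165) in ibrutinib, so neither passed the threshold. Over the libraries with the highest B-cell markers the change of Dapp1 was -0.68 (SE 0.12, adjusted p = 0.124, limma) in DMSO and -1.02 (SE 0.13, adjusted p = 0.248) in ibrutinib, and over female libraries in DMSO it was -0.57 (SE 0.21, adjusted p = 0.408). With sample quality weights Dapp1 passed in DMSO, at -0.70 (adjusted p = 0.0385, limma), and not in ibrutinib, at -1.09 (adjusted p = 0.0529). Of all genes, 803 of 16470 passed with these weights in DMSO and 28 of 16428 in ibrutinib. When each library was left out in turn, the change stayed between -0.90 and -0.73 in DMSO and between -1.17 and -0.94 in ibrutinib.

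Akt2 (ENSMUSG00000004056, chr7:27591552-27640826, plus strand), a serine/threonine kinase best known for its part in the response to insulin, was the member that lay higher without overlap in both treatments. Its values in DMSO were 36.9, 38.1 and 36.9 in Eμ-TCL1 and 53.2, 46.4, 41.6, 50.1 and 50.7 in Eμ-TCL1;p53R172H/+, in replicate order. With ibrutinib they were 35.7, 31.0 and 29.6 in Eμ-TCL1 and 38.7, 37.1, 36.7 and 38.2 in Eμ-TCL1;p53R172H/+. The lowest Eμ-TCL1;p53R172H/+ library stood at 41.6 beside a highest Eμ-TCL1 library of 38.1 in DMSO, and at 36.7 beside 35.7 in ibrutinib, a narrow gap. Of all genes, 3.52% in DMSO, 6.68% in ibrutinib and 1.45% (230 genes) in both lay higher without overlap. The log2 change of Akt2 was 0.36 (SE 0.17, adjusted p = 0.628, limma) in DMSO and 0.23 (SE 0.14, adjusted p = 0.536) in ibrutinib, and neither passed the threshold. It was 0.33 and 0.30 over the libraries with the highest B-cell markers.

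Akt1 (ENSMUSG00000001729, chr12:112653821-112674884, minus strand), the most widely expressed AKT kinase, showed no such separation. In DMSO it was at 137.7, 60.8 and 74.5 in Eμ-TCL1 and at 80.3, 85.1, 66.1, 82.7 and 82.4 in Eμ-TCL1;p53R172H/+. In ibrutinib the values were 136.7, 61.8 and 72.8, and 60.0, 59.5, 60.9 and 78.1. The values of 137.7 and 136.7 were from the Eμ-TCL1 libraries led by myeloid markers, and the part of myeloid cells in them was not tested. The log2 change was -0.11 (SE 0.27, adjusted p = 0.894, limma) in DMSO and -0.40 (SE 0.28, adjusted p = 0.573) in ibrutinib, and over the libraries with the highest B-cell markers the sign turned, to 0.19 and 0.04.

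The catalytic subunits differed in how evenly they were expressed. Pik3cd (ENSMUSG00000039936, chr4:149649168-149702571, minus strand) was at 201.5, 471.1 and 428.2 in Eμ-TCL1 and at 1265.2, 1117.6, 298.8, 266.2 and 320.2 in Eμ-TCL1;p53R172H/+ in DMSO. In ibrutinib it was at 208.3, 321.0 and 455.9, and at 937.9, 336.5, 265.4 and 331.5. The values of 1265.2, 1117.6 and 937.9 came from the libraries in which T-cell markers were the highest list, and the lowest value of each treatment came from the Eμ-TCL1 library led by myeloid markers. Genotypes overlapped, and the log2 change was 0.58 (SE 0.64, adjusted p = 0.755, limma) in DMSO and 0.39 (SE 0.48, adjusted p = 0.735) in ibrutinib. The sign depended on those libraries: over the ones with the highest B-cell markers Pik3cd was lower in Eμ-TCL1;p53R172H/+ by a log2 change of -0.61 (SE 0.16, adjusted p = 0.191, limma) in DMSO and of -0.37 (SE 0.28, adjusted p = 0.614) in ibrutinib. Without the 3 T-cell-led libraries it was -0.22 and -0.01. The part of T-cells in the level of Pik3cd was not tested.

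Pik3ca (ENSMUSG00000027665, chr3:32397671-32468486, plus strand), the ubiquitous alpha catalytic subunit, showed no such split. Its values were 152.0, 193.5 and 157.3 in Eμ-TCL1 and 167.3, 175.9, 239.3, 140.3 and 165.2 in Eμ-TCL1;p53R172H/+ in DMSO, and 110.0, 157.1 and 159.6 and 137.8, 144.9, 132.4 and 141.7 in ibrutinib. The genotypes overlapped in both, with log2 changes of 0.07 (SE 0.22, adjusted p = 0.924, limma) and -0.01 (SE 0.18, adjusted p = 0.979). The T-cell-led libraries lay inside the range of the others.

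Pik3r1 (ENSMUSG00000041417, chr13:101680563-101768217, minus strand), which encodes the p85α regulatory subunit that stabilizes the catalytic subunits, had a pattern close to that of Pik3cd in the Eμ-TCL1;p53R172H/+ libraries. There it was at 290.1, 308.4, 156.0, 145.9 and 136.8 in DMSO and at 185.0, 126.0, 105.2 and 102.0 in ibrutinib, with the T-cell-led libraries highest in both. In Eμ-TCL1 it was at 199.7, 197.4 and 300.2 in DMSO and at 148.5, 100.5 and 169.3 in ibrutinib. Genotypes overlapped, with log2 changes of -0.23 (SE 0.35, adjusted p = 0.830, limma) in DMSO and -0.11 (SE 0.28, adjusted p = 0.873) in ibrutinib. Over the DMSO libraries with the highest B-cell markers, the 3 Eμ-TCL1;p53R172H/+ values were below both Eμ-TCL1 values, at a log2 change of -0.73 (SE 0.22, adjusted p = 0.224, limma), and in ibrutinib the change was -0.33 (SE 0.30, adjusted p = 0.675).

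Inpp5d (ENSMUSG00000026288, chr1:87620312-87720507, plus strand), whose product SHIP-1 removes a phosphate from PIP3 and restrains PI3K signaling in blood cells, was lowest in the T-cell-led libraries in DMSO, and not in ibrutinib. In DMSO it was at 280.1, 353.1 and 288.4 in Eμ-TCL1 and at 261.6, 219.0, 433.2, 433.1 and 447.6 in Eμ-TCL1;p53R172H/+. The 3 B-cell-led Eμ-TCL1;p53R172H/+ libraries lay between 433.1 and 447.6, above every Eμ-TCL1 library, while the T-cell-led ones were below all of them. With ibrutinib the values were 268.0, 248.5 and 202.4 in Eμ-TCL1 and 189.1, 153.4, 225.7 and 195.8 in Eμ-TCL1;p53R172H/+. The log2 change of Inpp5d was 0.17 (SE 0.31, adjusted p = 0.855, limma) in DMSO and -0.33 (SE 0.20, adjusted p = 0.531) in ibrutinib. Over the libraries with the highest B-cell markers it was 0.46 (SE 0.16, adjusted p = 0.273, limma) and -0.09 (SE 0.20, adjusted p = 0.861).

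Foxo1 (ENSMUSG00000044167, chr3:52268336-52353221, plus strand), the transcription factor that AKT holds in the cytoplasm, was higher in Eμ-TCL1;p53R172H/+ without overlap in DMSO only. There it was at 45.4, 87.5 and 80.8 in Eμ-TCL1 and at 107.7, 132.4, 94.4, 110.6 and 146.7 in Eμ-TCL1;p53R172H/+. In ibrutinib it was at 40.8, 247.6 and 111.7, and at 68.6, 120.9, 134.9 and 91.5, so that Eμ-TCL1 held both the lowest and the highest library. The value of 247.6 was that of Eμ-TCL1 replicate 3, and the lowest Foxo1 value of each treatment was that of the Eμ-TCL1 library led by myeloid markers. The log2 change was 0.76 (SE 0.27, adjusted p = 0.546, limma) in DMSO and -0.05 (SE 0.57, adjusted p = 0.971) in ibrutinib, and without Eμ-TCL1 replicate 3 the latter was 0.57. Over the libraries with the highest B-cell markers the changes of Foxo1 were 0.45 (SE 0.22, adjusted p = 0.386, limma) and -0.58 (SE 0.48, adjusted p = 0.645). Of the 8 genes, Foxo1 was the one whose exons overlap another gene of the annotation, the antisense gene Gm20402, over 674 bases (7.78% of its exon length), and the sources used here do not say whether the counting used the strand.

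**Figure D3:**
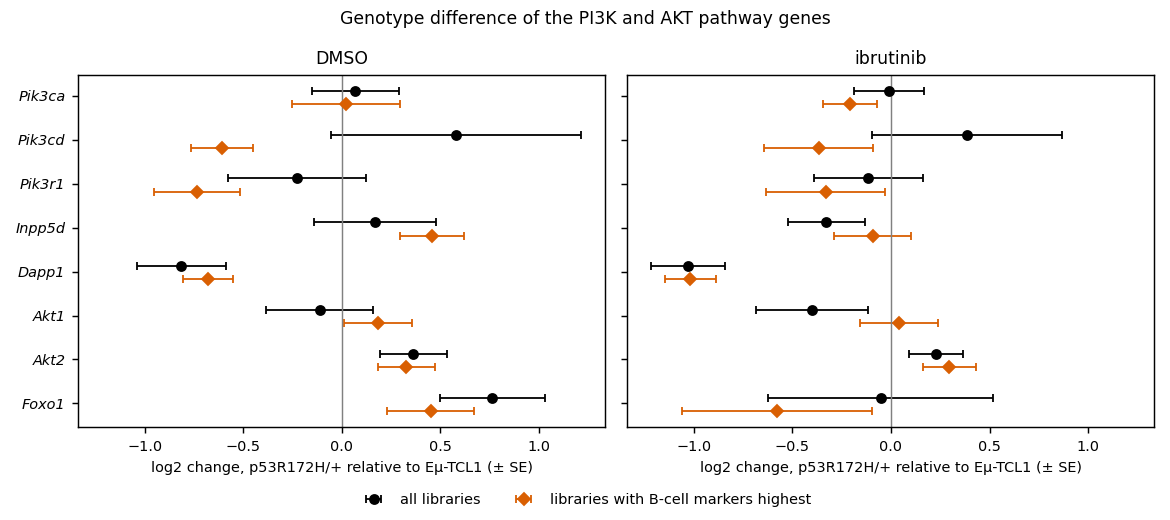
Log2 change of the 8 genes in Eμ-TCL1;p53R172H/+ relative to Eμ-TCL1, with its SE, in DMSO (left) and ibrutinib (right), over all libraries (circles) and over those in which B-cell markers were the highest list (diamonds). Dapp1 stays between -1.03 and -0.68 in all 4 fits, Akt2 between 0.23 and 0.36, and Pik3cd changes sign between the fits.

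Whether the genotype difference depended on the treatment was tested as an interaction over the 15 libraries, in which a scaling common to a table cancels. The test took the libraries as independent, although libraries of DMSO and ibrutinib deviated together, as given under the processing. None of the 8 genes passed (adjusted p = 1 for each, limma), none had an unadjusted p under 0.05 (the lowest was 0.195), and of 15869 genes 0 (0%) passed and 83 (0.523%) had an unadjusted p under 0.05. The interaction estimates of the 8 genes ran from -0.82 for Foxo1 to 0.11. For Dapp1 the estimate was -0.22 (SE 0.28) and for Akt2 -0.13 (SE 0.18). The difference of Foxo1 in DMSO was thus not shown to be another than that in ibrutinib.

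Levels in ibrutinib were not tested against those in DMSO, because the authors scaled each table separately. The group means are set side by side instead. In Eμ-TCL1, Dapp1 was at 80.2 ± 8.84 (SD, n = 3) in DMSO and 68.2 ± 11.2 (SD, n = 3) in ibrutinib, Inpp5d at 307 ± 40.0 and 240 ± 33.7, and Pik3r1 at 232 ± 58.7 and 139 ± 35.3. In Eμ-TCL1;p53R172H/+, Dapp1 was at 45.8 ± 9.88 (SD, n = 5) and 32.8 ± 4.61 (SD, n = 4), Inpp5d at 359 ± 109 and 191 ± 29.7, and Pik3r1 at 207 ± 84.3 and 130 ± 38.5. Akt2 was at 37.3 ± 0.69 and 32.1 ± 3.20 in Eμ-TCL1 and at 48.4 ± 4.51 and 37.7 ± 0.93 in Eμ-TCL1;p53R172H/+. Not all members were lower in ibrutinib. Foxo1 was at 71.2 ± 22.6 and 133 ± 105 in Eμ-TCL1 and at 118 ± 20.9 and 104 ± 29.7 in Eμ-TCL1;p53R172H/+. In the same order, the means of Akt1 were 91 and 90.4, and 79.3 and 64.6. Those of Pik3ca were 168 and 142, and 178 and 139. Those of Pik3cd were 367 and 328, and 654 and 468.

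A ratio of 2 genes of the same library does not depend on the scaling, so 3 log2 ratios were compared between genotypes and between treatments by two-sided exact permutation tests, 12 comparisons in all. None passed after Benjamini-Hochberg adjustment over the 12, and the lowest adjusted p was 0.429. For Akt2 over Akt1, the balance of the AKT kinases, the mean log2 ratio in DMSO was -1.20 ± 0.63 (SD, n = 3) without and -0.71 ± 0.10 (SD, n = 5) with the mutant allele, with a difference of 0.48 (exact p = 0.0714). In ibrutinib it was -1.41 ± 0.48 (SD, n = 3) and -0.77 ± 0.18 (SD, n = 4), with a difference of 0.64 (exact p = 0.0571). The libraries overlapped in both treatments, the lowest ratios of -1.90 and -1.94 were those of the myeloid-led Eμ-TCL1 libraries with high Akt1, and over the libraries with the highest B-cell markers the differences were 0.15 and 0.27. Between treatments the ratio differed by -0.21 in Eμ-TCL1 (exact p = 0.600) and by -0.06 in Eμ-TCL1;p53R172H/+ (exact p = 0.587).

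The ratio of Pik3cd to Pik3ca, the leukocyte against the ubiquitous catalytic subunit, stood at 2.92 and 2.67 on the log2 scale in the T-cell-led Eμ-TCL1;p53R172H/+ libraries in DMSO and at 2.77 in the one in ibrutinib, and between 0.32 and 1.51 in the other libraries. Between genotypes it differed by 0.51 in DMSO (exact p = 0.518) and by 0.40 in ibrutinib (exact p = 0.657), and between treatments by 0.11 in Eμ-TCL1 (exact p = 0.800) and by -0.0041 in Eμ-TCL1;p53R172H/+ (exact p = 1). The ratio of Pik3r1 to Pik3cd, the regulatory against the catalytic subunit, was lowest in the same 3 libraries, at -2.12, -1.86 and -2.34, and differed by -0.81 between genotypes in DMSO (exact p = 0.143) and by -0.50 in ibrutinib (exact p = 0.400). Between treatments it differed by -0.60 in Eμ-TCL1 (exact p = 0.300) and by -0.30 in Eμ-TCL1;p53R172H/+ (exact p = 0.413), in tests that did not pair the libraries. With 3 libraries against 3, an exact test cannot give a p-value under 0.1, and the smallest values for 3 against 4, 3 against 5 and 5 against 4 are 0.0286, 0.0179 and 0.00794.

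**Figure D4:**
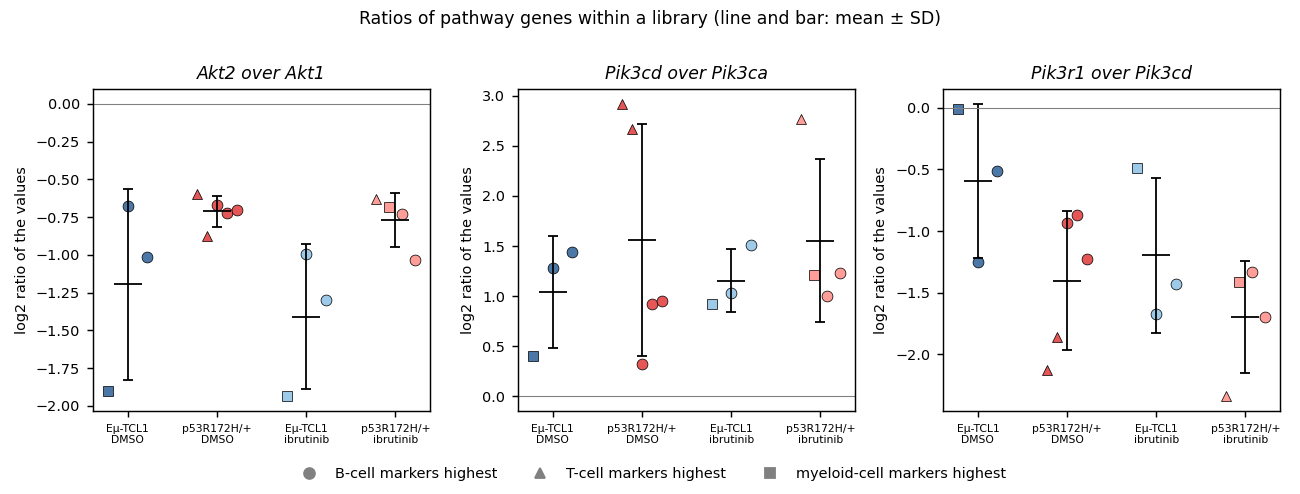
Log2 ratios of Akt2 to Akt1, Pik3cd to Pik3ca and Pik3r1 to Pik3cd within each library, with the mean and SD of each group and the symbol showing the highest marker list. The T-cell-led libraries (triangles) lie at 2.67 to 2.92 for Pik3cd over Pik3ca, and the squares at -1.90 and -1.94 are the lowest for Akt2 over Akt1.

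The 8 genes were set within 87 genes of the pathway in 10 lists by role, of which 82 were found in DMSO and 81 in ibrutinib. Found genes were counted by identifier. Of the 7 listed genes of the endogenous TCL1 family, which include Tcl1 and the Tcl1b genes, 2 identifiers were found in each treatment. Values of Tcl1 and the Tcl1b genes are not reported here. Foxo6 was found in DMSO only. By limma, 0 of the 82 genes passed in DMSO, where at an unadjusted p under 0.05 the mutant genotype was higher for 3 (Foxo1, Eif4ebp2 and Gsk3a) and lower for 3 (Dapp1, Ccng2 and Phlpp1). In ibrutinib 0 of 81 passed, with 6 higher and 6 lower at that limit, and the genotypes did not overlap for 8 higher and 10 lower genes (4 and 3 in DMSO). The counts at the unadjusted limit are to be read beside 8.17% of all genes in DMSO and 12% in ibrutinib. Those without overlap are to be read beside 6.45% in DMSO and 12.7% in ibrutinib.

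Of the 9 receptors and adaptors that recruit PI3K, such as Syk and Cr2, 8 were lower in DMSO and 9 in ibrutinib in Eμ-TCL1;p53R172H/+, with a median log2 change of -0.94 and -1.52, and 0 passed the test. Over all genes tested, 7693 of 16470 were lower in DMSO and 8937 of 16428 in ibrutinib. In ibrutinib the summed B-cell markers ran from 65.3 to 1486.9 in Eμ-TCL1;p53R172H/+ and from 401.9 to 3475.5 in Eμ-TCL1, with overlap. The part of B-cells in the values of these receptors and adaptors was not tested. Syk, a kinase of B-cell receptor signaling, was the highest of the 9. In DMSO it ranged from 40 to 675.8 in Eμ-TCL1;p53R172H/+ and from 579.8 to 1503.3 in Eμ-TCL1, with a log2 change of -2.28 (SE 1.08, adjusted p = 0.629, limma). Over the libraries with the highest B-cell markers Syk was at -1.21 in DMSO and -1.68 in ibrutinib (adjusted p = 0.134 and 0.255, limma). Cr2, a coreceptor on mature B-cells, was at -1.52 (adjusted p = 0.352) in ibrutinib.

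Among the 6 lipid phosphatases and inhibitors of PI3K, Pik3ip1, an inhibitor of PI3K, was at 372.5 and 223.2 in the T-cell-led DMSO libraries and at most 51.5 in the others, and in ibrutinib it lay higher without overlap (2.02, SE 0.43, adjusted p = 0.218, limma), with 385.7 in the T-cell-led library.

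Of the 7 catalytic subunits 0 passed and the genotypes of 0 were separate in either treatment. Of the 6 regulatory subunits, Pik3r2 (p85β) lay lower without overlap in ibrutinib, at 7.4 to 20 against 22.1 to 26.4 (log2 change -0.96, SE 0.32, adjusted p = 0.341, limma). The 9 effectors with a pleckstrin homology domain, the list that holds Dapp1, had a median of 0.02 in DMSO and -0.68 in ibrutinib, and 1 (Dapp1) was under the unadjusted limit in each. Plcg2, the phospholipase of B-cell receptor signaling and the highest of that list, was at 20.3 to 520.3 in Eμ-TCL1;p53R172H/+ and at 329 to 771.3 in Eμ-TCL1 in DMSO (adjusted p = 0.646, limma).

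In the list of 12 AKT kinases and regulators, Rictor, a subunit of the complex that phosphorylates AKT, had log2 changes of 0.34 in DMSO and 0.51 in ibrutinib, and the phosphatase subunit Ppp2ca of 0.0050 and 0.067, with the genotypes overlapping. Mtcp1, a relative of TCL1, was at -0.24 in DMSO and 0.17 in ibrutinib for the identifier with the higher level.

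Of 15 FOXO target genes 0 passed in either treatment. Over all genes in ibrutinib, 6.68% lay higher without overlap and 5.69% were higher at the unadjusted limit. In ibrutinib 4 genes of lymphocyte survival and traffic lay higher in Eμ-TCL1;p53R172H/+ without overlap and under the unadjusted limit: Il7r, the interleukin-7 receptor (log2 change 2.21, SE 0.63, adjusted p = 0.298, limma), Ccr7, a homing receptor (1.25, SE 0.39, adjusted p = 0.321), S1pr1, the receptor for exit from lymphoid tissue (1.74, SE 0.38, adjusted p = 0.222), and Klf2, a transcription factor of quiescent lymphocytes (1.15, SE 0.26, adjusted p = 0.226). T-cells express all 4 of these genes, and the summed T-cell markers were 411 to 1363.9 in those libraries and 95.8 to 346.7 in Eμ-TCL1, without overlap. In Eμ-TCL1;p53R172H/+ replicate 1, where these markers were at 1363.9, Ccr7 (212.4), S1pr1 (624.6) and Klf2 (147.7) were the highest of their group. Il7r was the lowest there, at 146.9, against 789.9, 376.4 and 445.3 in replicates 3, 4 and 5. The part of T-cells in these values was not tested. In the DMSO libraries with the highest B-cell markers Ccr7 was at -0.51 and Klf2 at -0.97, opposite to ibrutinib, where they were at 0.95 and 1.11. Ccng2, a cyclin induced by FOXO factors, lay lower without overlap in both treatments, at 36.1 to 66.1 against 74.7 to 92.6 in DMSO (log2 change -0.67, SE 0.24, adjusted p = 0.553, limma) and at 54.6 to 77 against 81.3 to 97.4 in ibrutinib (-0.36, SE 0.17, adjusted p = 0.463). Lower values without overlap in both treatments were found for 1.34% of the 15869 genes in both tables. Btg1, the highest of the list, was at 0.47 and 0.33, with overlap. Foxo3, the highest FOXO factor in DMSO, was at 0.0040 in DMSO and -0.20 in ibrutinib.

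Of 12 further AKT substrates and members of mTORC1 0 passed. Eif4ebp2, a repressor of translation that mTORC1 inactivates, was at 43.6 to 86.1 in Eμ-TCL1;p53R172H/+ against 24.6 to 37.1 in DMSO (log2 change 0.91, SE 0.28, limma), and overlapped in ibrutinib. Gsk3a, a kinase that AKT inhibits, was at 40 to 51.8 against 28.7 to 35.1 in DMSO (0.46, SE 0.18, adjusted p = 0.591) and at 0.05 in ibrutinib. Eif4ebp1 lay lower without overlap in ibrutinib, at 9 to 31 against 35.3 to 48.9 (-0.98, SE 0.40, adjusted p = 0.395, limma). Rps6kb1, the S6 kinase, was at -0.11 and -0.25, and Gsk3b at -0.08 in ibrutinib.

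**Figure D5:**
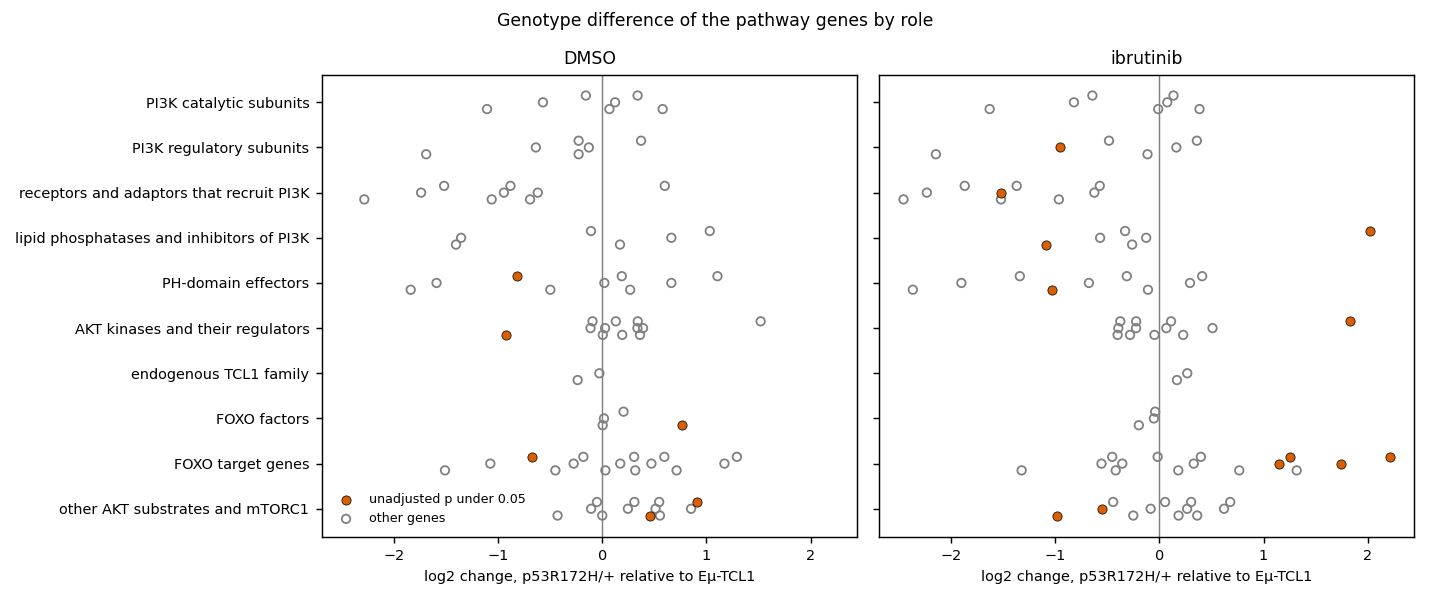
Log2 change of the measured pathway genes by role in DMSO (left) and ibrutinib (right), each circle a gene and filled where the unadjusted p was under 0.05 (6 and 12 genes). No gene passed after adjustment over all genes, and 8 and 9 of the 9 receptors and adaptors lie left of 0. Of all genes tested, which are not drawn, 7693 of 16470 and 8937 of 16428 were lower.

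The genes with the pattern most like each member were sought over the 15 libraries, among 10119 genes with a mean of at least 5 in both tables, as the Pearson correlation of log2 values centred on each table. These correlations are descriptions, over libraries that share a table, a scaling and the cell mixtures given above. The values were not centred on genotype, so differences between genotypes, such as the opposite ones of Dapp1 and Akt2, enter r. Dapp1 ran closest to Rp2h (r = 0.983) and Sgk3 (r = 0.970), Akt2 to Llgl1 (0.935) and Abl2 (0.910), and Akt1 to Camkk2 (0.949) and Fbxo34 (0.946). The nearest to Pik3cd were Igtp (0.974) and Rnf31 (0.972), to Pik3r1 Sirt7 (0.946) and Dhx58 (0.940), and to Pik3ca Rmi1 (0.913) and Tmf1 (0.883). For Inpp5d they were Mtor (0.952) and Bcat2 (0.946) and for Foxo1 Atf7ip (0.910) and Kmt2a (0.903). Among the members themselves, Akt2 and Dapp1 ran most opposite (r = -0.847) and Pik3cd and Pik3r1 most alike (r = 0.699).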

How the data were processed

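Per the labels and the study's methods, the authors sequenced RNA from cells of tumor-bearing mouse spleens after culture. The submitters' processing notes name TopHat2 2.0.12, SAMtools 0.1.19, HTSeq and edgeR on GRCm38, and the methods name GENCODE M2 and a filter on genes with low CPM. The deposited signal values are CPM of an effective library size, scaled by the authors separately in each of 2 tables and rounded to 0.1, and their sums per library, 756625 to 1359650, reflect that scaling. Whole reads could not be recovered and the depth of the libraries is unknown, so no counting interval is given and tests on counts were not run.

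The genotype tests used R 4.3.3 and limma 3.58.1, with moderated variances that follow the mean (trend), on log2-transformed values after adding 1, which understates changes of low genes, over all genes of a table, with Benjamini-Hochberg adjustment. Ratios within a library were compared by exact permutation in Python 3.11.15. Both were tested on simulated data. Coordinates and exon lengths are from GENCODE M21 and upstream sequences from RefSeq, both on GRCm38, and 8 of 8 genes matched. Besides the 8 genes, the text names the highest gene of each list, those with an unadjusted p under 0.05 and no overlap, and the 2 genes most like each member; cell type markers serve as background. Some genes of these lists are counted but not reported here by name. The members, lists and tests were chosen with earlier results of these data known. Replicate numbers were checked by the correlation of deviations from group means. For the same number, 5 pairs between treatments gave 0.715 to 0.837, and pairs between genotypes gave -0.17 to 0.25. Eμ-TCL1;p53R172H/+ replicate 3, female in DMSO and male in ibrutinib by Xist and Ddx3y, gave -0.10 between treatments. The highest value, 0.891, was between unlike numbers, Eμ-TCL1 replicate 2 in DMSO and replicate 1 in ibrutinib, both led by myeloid markers. The numbers were therefore not taken to pair the libraries. The libraries of DMSO and ibrutinib are not shown to be independent, so a pattern seen in both treatments may be the same leukemias measured again. Figures were drawn with matplotlib 3.10.9.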

Additional observations from a re-analysis of the deposited data

Results flagged for a closer look

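In 22 groups of 4 or 5 values (8 genes and 3 ratios in both Eμ-TCL1;p53R172H/+ groups), Dixon's criterion marked 4 single libraries as far from the others of their group, where chance alone would mark about 1 group in 20. Pik3cd was at 937.9 in Eμ-TCL1;p53R172H/+ replicate 1 in ibrutinib and at 265.4 to 336.5 in the other 3 libraries, and the log2 ratio of Pik3cd to Pik3ca there was 2.77, against 1.003 to 1.226. In that library T-cell markers summed to 1363.9 and B-cell markers to 65.3, and their part in the value was not tested. Akt1 was at 66.1 in Eμ-TCL1;p53R172H/+ replicate 3 in DMSO (80.3 to 85.1 in the others) and at 78.1 in replicate 5 in ibrutinib (59.5 to 60.9 in the others).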

How the results depend on the processing

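Every fit was repeated with a pseudocount of 0.1 or 5, over genes with a mean of 5 or more, after quantile normalization, with weights for sample quality, with the replicate number as a block, without each library in turn, without libraries with few B-cell transcripts (Eμ-TCL1;p53R172H/+ replicates 1 and 2 in DMSO, 1 in ibrutinib), over female libraries and, chosen after seeing the data, over libraries with the highest B-cell markers. Female libraries were compared in DMSO only, since ibrutinib had 1 female Eμ-TCL1;p53R172H/+ library. The changes of Dapp1 and Akt2 between genotypes kept their sign under every alternative. The causes of the shifts below were not tested.

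In DMSO, sample quality weights raised the called genes from 0 to 1 member (Dapp1) and from 0 to 4 pathway genes (also Eif4ebp2 and Akt1s1, among others). In ibrutinib they raised them from 0 to 1 pathway gene. Over all genes, calls ranged over the alternatives from 0 to 803 in DMSO and from 0 to 28 in ibrutinib. Both of the highest numbers, 803 of 16470 and 28 of 16428, were those with these weights. The weights turned Akt1 in DMSO to 0.060 and Pik3cd to -0.27 in DMSO and -0.14 in ibrutinib. Quantile normalization moved the median of all genes in ibrutinib from -0.05 to 0.07 and turned Pik3ca to 0.15, Pik3r1 to 0.017, Foxo1 to 0.14 and the interaction of Akt2 to 0.011. Without libraries with few B-cell transcripts, Pik3cd was at -0.22 and -0.014, Foxo1 in ibrutinib at 0.13, and Pik3cd over Pik3ca at -0.31 (DMSO), -0.0071 (ibrutinib) and 0.42 (ibrutinib against DMSO in Eμ-TCL1;p53R172H/+). Over female libraries Pik3cd was at -0.15. With the highest B-cell markers, Akt1 was at 0.19 and 0.040, Pik3cd at -0.61 and -0.37, Pik3cd over Pik3ca at -0.63 and -0.16 between genotypes and -0.092 and 0.38 between treatments, and Pik3r1 over Pik3cd in ibrutinib at 0.035.

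With each library left out, ranges that crossed 0 were -0.36 to 0.23 for Akt1 and -0.044 to 0.18 for Pik3ca in DMSO, and in ibrutinib -0.19 to 0.081 for Pik3ca, -0.014 to 0.66 for Pik3cd, -0.33 to 0.042 for Pik3r1 and -0.72 to 0.57 for Foxo1. Called pathway genes in ibrutinib ranged from 0 to 1 (without Eμ-TCL1 replicate 1). Pik3cd over Pik3ca ranged from -0.0071 to 0.58 between genotypes in ibrutinib and, between treatments, from -0.21 to 0.31 in Eμ-TCL1 and -0.41 to 0.34 in Eμ-TCL1;p53R172H/+. Akt2 over Akt1 between treatments ranged from -0.57 to 0.049 and -0.10 to 0.031.

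With the replicate block no member or pathway gene was called (0 in each comparison), and Pik3cd over Pik3ca between treatments, over pairs of the same number, was -0.092 in Eμ-TCL1 libraries and 0.27 in Eμ-TCL1;p53R172H/+ libraries. Pik3r1 over Pik3cd was lower with ibrutinib in 6 of 6 pairs of the same number, by log2 differences of -0.92 to -0.22, with a mean of -0.67 over 2 Eμ-TCL1 pairs (exact sign-flip p = 0.5, the smallest possible) and -0.41 over 4 Eμ-TCL1;p53R172H/+ pairs (exact sign-flip p = 0.125, the smallest possible). Akt2 over Akt1 was also lower in 6 of 6 pairs (-0.33 to -0.0076). By Xist and Ddx3y, Eμ-TCL1;p53R172H/+ replicate 3 was female in DMSO (1491.3 and 0.1) and male in ibrutinib (1 and 82.1). Its libraries thus came from mice of different sex, and they did not deviate together. This pair is counted among the 6 and in the Eμ-TCL1;p53R172H/+ means. For Pik3cd over Pik3ca it differed by 0.90, and replicates 1, 4 and 5 by -0.15, 0.079 and 0.27. The other numbers are not known to mark the same mouse. The block changed no other direction.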
